A study of Caenorhabditis elegans with 12 samples.

Results

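The comparison set day 14 of adulthood against day 7, the age around which wild-type worms stop reproducing, and asked which microRNAs started, continued or stopped changing after day 7. Its members were the 3 libraries labelled day 14 and the 3 labelled day 7, 6 of the 12 libraries of an ageing series of *Caenorhabditis elegans*. The other 6 libraries, 3 at day 1 and 3 at day 21, entered the same fit, and the day 1 libraries gave the earlier step, day 7 against day 1. All groups were whole worms of the wild-type strain N2, carried no transgene or mutation and received no agent named in the labels, and the labels set the groups apart by age alone. Each library was small RNA from a pool of handpicked worms. Worms were moved to fresh plates every other day up to day 10, and those that burst or hatched eggs inside the body were taken out, so the later libraries hold the animals that remained. The step to day 7 spans 6 days and the step to day 14 spans 7 days. Both steps share the day 7 libraries, so a high or low day 7 value moves them in opposite directions.

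MicroRNAs are short RNAs cut from a hairpin precursor. One arm of the hairpin usually becomes the guide strand that an Argonaute protein carries to messenger RNAs, while the partner arm is mostly degraded. Guides recognise targets through the seed, bases 2 to 8, so microRNAs that share a seed form a family that can share targets. In worms, families such as let-7 and lin-4 time larval development, the miR-35 family acts in the germline and embryo, and several others, among them miR-34, miR-71 and miR-238, have been linked to lifespan.

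The microRNA that the study went on to follow was *mir-83*, a relative of mammalian miR-29. Its guide arm is shown as the one member whose sequence the study lists, from the sense strand of the designed mimic, with the seed in capitals and T in place of U.
miR-83-3p: tAGCACCAtataaattcagtaa
The hairpin lies on chromosome IV between 7841631 and 7841728 on the plus strand, outside protein-coding genes. Positions here and below are those of the WBcel235 annotation, matched by hairpin name for 212 of 218 hairpins, and not those of the older build to which the authors aligned.

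The deposited table gave counts per mature microRNA, and the 6 libraries held between 6652468 and 7897687 counts, a 1.19-fold range. Markers of the tissues of a whole worm were all present, from miR-1-3p of body muscle to the neuronal lsy-6. On a principal component analysis of the 12 libraries the first component, with 79.4% of the variance, set the day 7 libraries at -3.87, -4.11 and -3.24. Day 14 replicate 1 lay at 14.42, apart from replicates 2 and 3 at 7.83 and 7.99. It lay beside day 21 replicates 2 and 3, at 14.03 and 14.15, while day 21 replicate 1 lay at 7.72 beside the other day 14 libraries. Each of these 2 libraries thus lay with the other's age, and whether their labels were exchanged was not tested. The labels were kept as given. Many results in which day 14 replicate 1 stands out are given with and without it, but not all of them.

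Of 368 mature microRNAs, 245 had enough counts to be tested, and 101 of these (41.2%) differed between day 14 and day 7 at an adjusted p below 0.05 in edgeR's quasi-likelihood test. In all, 59 were higher (24.1%) and 42 were lower (17.1%) at day 14, and 125 had an unadjusted p below 0.05. The median log2 fold change over all tested microRNAs was 0.01, with a median standard error of 0.32. In 154 of the 245 (62.9%) the day 7 and day 14 libraries did not overlap, 77 in each direction. Scaling by total counts in place of TMM, a scaling that limits the weight of the few most abundant microRNAs, moved that median to -0.21 and the split to 44 higher and 55 lower, while no call changed its direction. Without day 14 replicate 1 the test called 71 microRNAs, 45 higher and 26 lower, 68 of them among the 101. In whole worms, fewer cells of a type and less of a microRNA per cell cannot be told apart.

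By their calls up to and after day 7 the microRNAs fell into 5 groups. Between day 1 and day 7, 96 of the 245 (39.2%) had passed the test, 52 higher (21.2%) and 44 lower (18.0%). A set of 56 microRNAs started to change after day 7, that is, passed only in the second step, 30 of them upwards and 26 downwards. Another 40 continued, passing in both steps in the same direction, 26 upwards and 14 downwards. In 51 the change stopped, with a call in the first step alone, 24 after a rise and 27 after a fall. The sign turned between the steps in 5, and 93 passed in neither step, although 36 of these 93 differed between day 14 and day 1.

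A call in one step and none in the other does not show that the steps differ, so their difference was tested directly. It passed for 43 of the 245 (17.6%), with the second step above the first in 19 (7.76%) and below it in 24 (9.80%). These 43 were 14 of the 56 that started, 5 of the 40 that continued, 19 of the 51 that stopped and all 5 that turned. For the 5 that turned the pass adds nothing, since calls in opposite directions all but fix it in advance. The test of the difference weights day 7 doubly and rested on those libraries, since it passed for 8, 23 and 7 microRNAs without day 7 replicates 1, 2 and 3. Each difference of the steps given below for a single microRNA comes from the full fit. Whether it held with a library left out was not followed for each microRNA. For most of the 56 and the 51, the data therefore place the call in a step without showing that the other step was different.

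**Figure D1:**
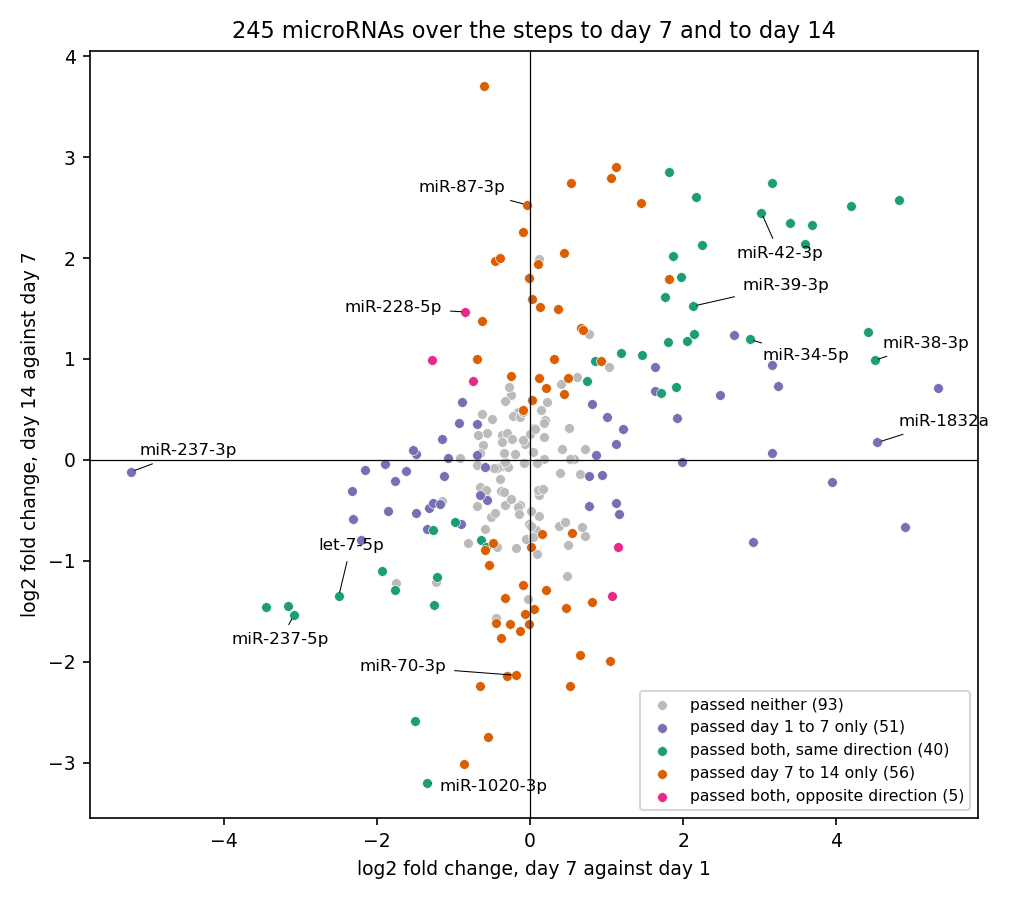
Each point is 1 of the 245 tested microRNAs, with its fitted log2 fold change from day 1 to day 7 on the x axis and from day 7 to day 14 on the y axis, coloured by the steps in which it passed the test. The 56 that passed only in the later step lie along the vertical axis and the 51 that passed only in the earlier step along the horizontal one.

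The largest rises that began after day 7 in abundant microRNAs were those of the pair miR-87-3p and miR-233-3p, which carry the same seed. miR-87-3p, from a hairpin on chromosome V between 12038688 and 12038781 on the minus strand within *kup-1*, stood at 367, 373 and 402 CPM (counts scaled to a common library size, with TMM factors) at day 7 and at 3462, 1457 and 1666 CPM at day 14. All 3 day 14 libraries lay above all day 7 libraries, and replicate 1 was the highest. The log2 fold change was 2.53 ± 0.36 (SE, adjusted p = 0.00018, edgeR) after -0.04 in the step to day 7, and the difference of the steps passed (adjusted p = 0.017, edgeR). Its seed partner miR-233-3p, from chromosome X between 12078587 and 12078684 on the minus strand within *W03G11.4*, had 72.5, 95.1 and 81.3 CPM at day 7 and 558, 270 and 359 CPM at day 14. It rose by 2.25 ± 0.36 on the log2 scale (adjusted p = 0.00041, edgeR), again after a near-zero first step of -0.10. Without day 14 replicate 1 the log2 rises were 2.11 for miR-87-3p and 1.99 for miR-233-3p, and both kept their calls.

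The miR-51 family, relatives of miR-100, showed the same start in some members and not in others. Of its 6 members, 4 rose after day 7, against 24.1% of all tested, and none had passed before, and the family median was 0.70 on the log2 scale against 0.01 for all microRNAs. That share of 24.1% includes scarce partner arms, so here and below it is a low background for lists of guide arms, as counted further on for the runs. miR-52-5p, encoded on chromosome IV between 14034008 and 14034107 outside protein-coding genes, had 5743, 5187 and 5515 CPM at day 7 and 25214, 14817 and 25823 CPM at day 14. These groups were far apart, and the rise of 2.0 ± 0.33 on the log2 scale (adjusted p = 0.00044, edgeR) differed from the first step of -0.39 (adjusted p = 0.015, edgeR). miR-53-5p rose by 1.31 ± 0.30, while miR-54-3p (0.82 ± 0.26) and miR-55-3p (0.59 ± 0.22) passed by less. The call of miR-54-3p was lost without any 1 of the day 7 libraries or day 14 replicate 1 (log2 0.60 to 0.84, adjusted p 0.062 to 0.12, edgeR). The most abundant member, miR-56-3p, was at 50635, 46212 and 51945 CPM and then at 65321, 57671 and 53153 CPM, and its log2 difference of 0.24 ± 0.23 did not pass (adjusted p = 0.42, edgeR). Only 2 members kept their calls without day 14 replicate 1.

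The miR-44 family gained most in absolute level among the microRNAs that started after day 7. miR-44-3p and miR-45-3p, from hairpins on chromosome II at 11890023 to 11890118 (plus strand) and 11880944 to 11881039 (minus strand), both stood at 20249, 16716 and 20112 CPM at day 7 and at 79770, 69513 and about 49742 CPM at day 14. Their counts were identical in 11 of 12 libraries and differed by at most 0.0003% in the remaining one, so the reads of one cannot be told from those of the other and the 2 rows count as a single measurement. The log2 rise was 1.80 ± 0.29 (adjusted p = 0.00041, edgeR) after a first step of -0.01, and the steps differed (adjusted p = 0.025, edgeR). The relative miR-247-3p was rarer, with 4.38, 6.04 and 5.80 CPM at day 7 and 36.8, 14.6 and 12.6 CPM at day 14, a log2 rise of 1.97 ± 0.42 that was 1.38 without day 14 replicate 1. The fourth member, miR-61-3p, had a log2 value of 0.18 that did not pass. With the shared row entered once, the family went from 2.60% ± 0.15 to 6.43% ± 0.77 of all deposited counts (SD, n = 3). With both rows entered it was 4.57% and 12.3%, and whether the reads were counted for both rows or divided between them was not tested.

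In the miR-29 family the 2 members passed the test in different steps. miR-49-3p, from chromosome X between 9989282 and 9989378, was at 400, 489 and 407 CPM at day 7, close to its day 1 mean of 394 CPM, and then at 1464, 964 and 1283 CPM. The log2 rise of 1.52 ± 0.25 (adjusted p = 0.00046, edgeR) exceeded the first step (adjusted p for the difference = 0.044, edgeR), and the partner arm miR-49-5p gave 0.44 ± 0.31 and did not pass. miR-83-3p was called before day 7 and not after. It had a day 1 mean of 53.4 CPM and reached 103, 160 and 87.6 CPM at day 7, and was then at 154, 97.4 and 140 CPM at day 14. The day 7 and day 14 libraries overlapped fully, with a log2 value of 0.16 ± 0.38 (adjusted p = 0.78, edgeR), after a step of 1.12 to day 7 (adjusted p = 0.029, edgeR). That first call was lost in 11 of the 12 fits that left out 1 library, all but that without day 1 replicate 3 (log2 0.62 to 1.18, adjusted p 0.058 to 0.29, edgeR), and the difference of the steps did not pass for miR-83-3p (adjusted p = 0.34, edgeR). Its partner arm miR-83-5p had 78.4, 89.3 and 68.9 CPM at day 7 and 42.3, 54.6 and 66.6 CPM at day 14, a log2 value of -0.53 ± 0.28 that did not pass, and here the steps of 1.16 and -0.53 did differ (adjusted p = 0.024, edgeR). The first step of miR-83-5p was not called without day 1 replicate 3 or day 7 replicate 2 (log2 0.91 and 0.94, adjusted p 0.053 and 0.055, edgeR).

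Among the falls that began after day 7, that of miR-70-3p moved by far the most counts. The hairpin lies on chromosome V between 6665536 and 6665635 on the minus strand, within the protein-coding gene *pmp-5*. miR-70-3p was among the 5 most abundant microRNAs at day 7, with 114892, 81763 and 87320 CPM, and dropped to 10363, 30929 and 23450 CPM at day 14. Every day 14 library was below every day 7 library, with replicate 1 lowest. The log2 fold change was -2.13 ± 0.47 (adjusted p = 0.0035, edgeR), or -1.74 without day 14 replicate 1 (adjusted p = 0.012, edgeR), after -0.19 in the first step, and the difference of the steps did not pass (adjusted p = 0.088, edgeR). Its share of all counts went from 9.75% ± 1.20 to 1.98% ± 1.02 (SD, n = 3). The scarce partner arm miR-70-5p fell with it, from 5.07, 7.98 and 5.14 CPM to 0.19, 1.08 and 1.32 CPM.

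miR-77-3p, from chromosome II between 12519268 and 12519367, had 25453, 31475 and 20623 CPM at day 7 and 8145, 10200 and 10849 CPM at day 14. The groups did not overlap, and the fall of -1.41 ± 0.32 (adjusted p = 0.0040, edgeR) followed a first step of 0.81 that missed the threshold (adjusted p = 0.056, edgeR). The steps differed by -2.22 on the log2 scale (adjusted p = 0.015, edgeR). miR-63-3p, from chromosome X between 17598765 and 17598868, likewise fell only after day 7, from 1605, 1546 and 1335 CPM to 432, 581 and 604 CPM. Its second step of -1.47 ± 0.25 (adjusted p = 0.00045, edgeR) differed from the first step of 0.05 (adjusted p = 0.021, edgeR).

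miR-63-3p was listed with the miR-64 family, in which 2 of 5 members fell, against 17.1% of all tested, none rose and the median was -0.56. Of these 2 calls, that of miR-65-5p was lost in 8 of the fits that left out 1 library. miR-65-5p, from a group of hairpins within *gcn-1* on chromosome III, fell from 24870, 22642 and 23676 CPM to 12290, 14259 and 16184 CPM, a log2 change of -0.74 ± 0.26 (adjusted p = 0.033, edgeR). The groups of miR-65-5p did not overlap, but in those 8 fits the log2 values were -0.73 to -0.57 and the adjusted p 0.057 to 0.20 (edgeR). The libraries left out were day 1 replicate 1, the 3 day 7 libraries, day 14 replicates 1 and 2 and day 21 replicates 2 and 3. Its neighbour miR-64-5p, at 21361, 19042 and 19914 CPM and then 11135, 14072 and 15836 CPM, did not pass (log2 -0.56 ± 0.28, adjusted p = 0.12, edgeR).

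miR-60-3p, which is made in the intestine, was at 268, 375 and 204 CPM at day 7 and at 69.0, 86.0 and 121 CPM at day 14. Its groups were apart, and it changed by -1.62 ± 0.45 on the log2 scale (adjusted p = 0.010, edgeR). Leaving out day 7 replicate 2, day 14 replicate 1 or day 14 replicate 2 ended the call (log2 -1.51 to -1.29, adjusted p 0.055 to 0.093, edgeR). The other arm, miR-60-5p, had 33 counts over the day 7 libraries and 3 over the day 14 libraries, a ratio of 0.116 with an exact 95% counting interval of 0.0227 to 0.368. Both arms of this intestinal hairpin passed downwards, and neither had passed in the step to day 7.

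**Figure D2:**
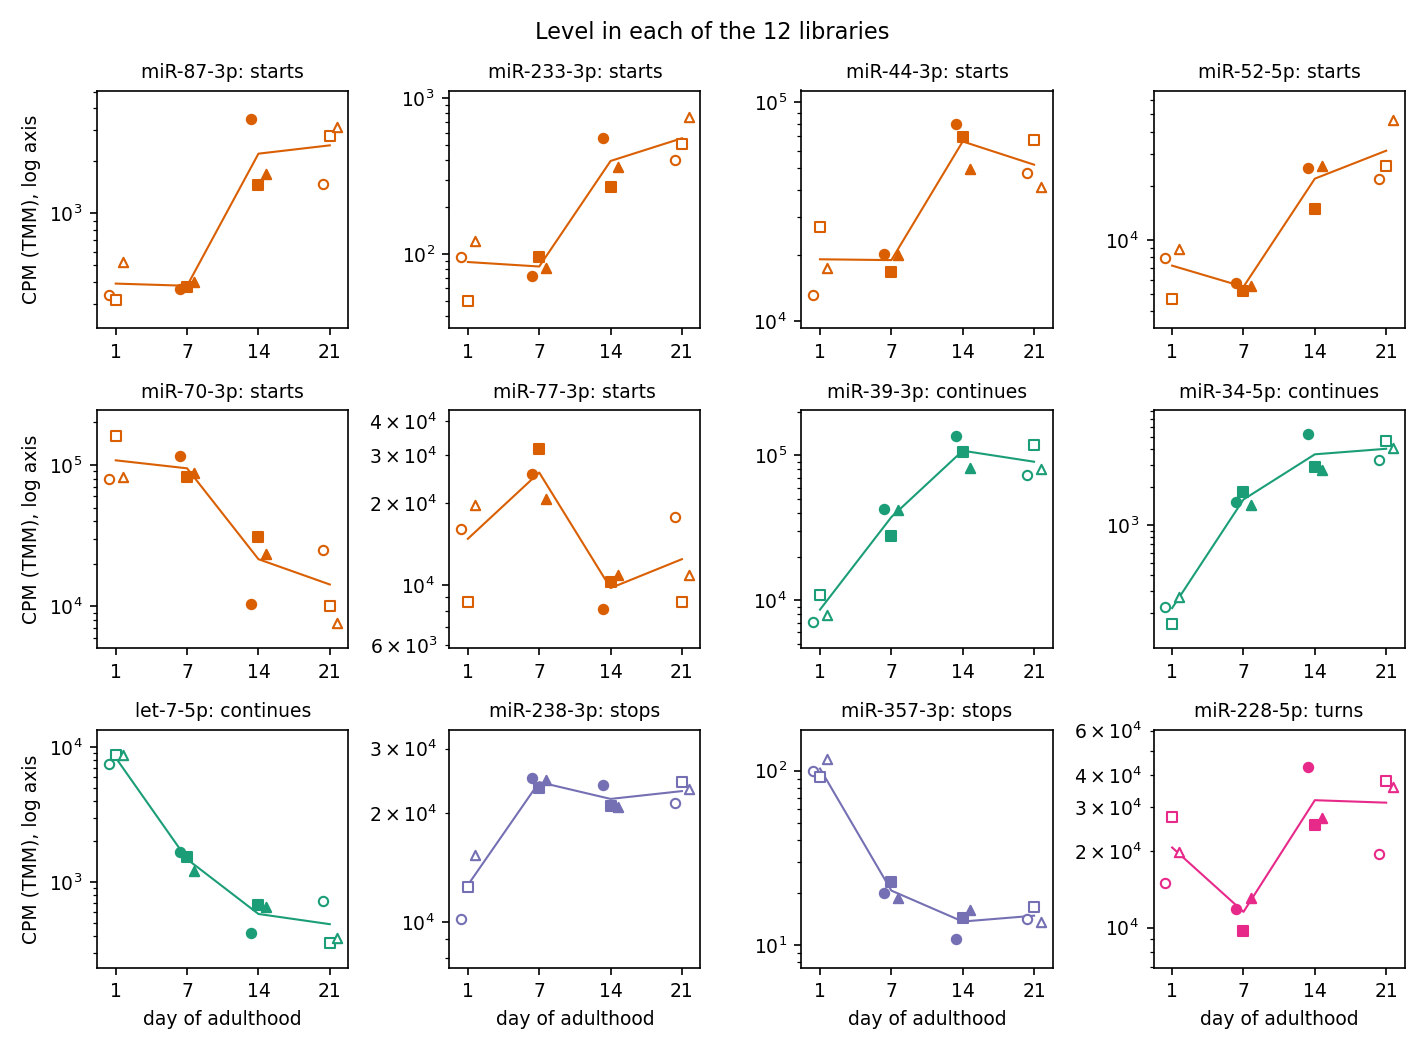
Each panel shows 1 microRNA in all 12 libraries, with TMM-scaled CPM on a log axis against day of adulthood. Circles, squares and triangles are replicates 1, 2 and 3, filled for day 7 and day 14, and the line joins the means. The 4 rising microRNAs of the top row and miR-70-3p passed the test only after day 7, while miR-238-3p and miR-357-3p passed it only before day 7.

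The rise of the miR-35 family, whose 3p arms are guides needed for embryonic development and fertility, continued after day 7. All 8 guide arms had passed upwards to day 7, and 7 of the 8 passed again to day 14, against 24.1% of all tested microRNAs called higher. Their day 14 libraries lay above the day 7 libraries in all 8, against 31.4% of all tested, and the median log2 change was 1.38 after 2.13 in the first step. miR-39-3p was at 42520, 27717 and 42298 CPM at day 7 and at 136164, 105832 and 81390 CPM at day 14. It rose by 1.52 ± 0.28 on the log2 scale (adjusted p = 0.00098, edgeR) and was the most abundant guide of the family at both ages. miR-35-3p, at 27448, 22073 and 27664 CPM and then 67713, 60932 and 54398 CPM, rose by 1.25 ± 0.19 (adjusted p = 0.00037, edgeR). miR-42-3p, the rarest of those named here, went from 830, 745 and 996 CPM to 5341, 4693 and 4015 CPM, a log2 rise of 2.45 ± 0.21 (adjusted p = 2.7e-06, edgeR). None of these groups overlapped.

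The second step was smaller than the first in part of the family. miR-38-3p climbed by 4.50 on the log2 scale to day 7 and by 0.99 to day 14, and miR-36-3p by 1.90 and then 0.72, and in both the steps differed (adjusted p = 1.5e-05 and 0.020, edgeR). miR-41-3p rose by 2.48 and then had a log2 value of 0.64 that did not pass (adjusted p = 0.059, edgeR), and its steps differed as well (adjusted p = 0.015, edgeR). For miR-37-3p, miR-39-3p, miR-40-3p and miR-42-3p no difference between the steps was detected (adjusted p from 0.27 to 0.80, edgeR). The 8 guides together held 9.20% ± 1.05 of all counts at day 7 and 20.8% ± 1.3 at day 14 (SD, n = 3). Of the 7 tested 5p arms none rose, against 24.1% of all tested, and 1 fell, against 17.1%, which is near that share. Their median was -0.76, but these counts rested on 1 library. Without day 14 replicate 1, 2 of 8 tested 5p arms rose, none fell and the median was -0.54, and with DESeq2 1 rose and 2 fell. Of the calls among all microRNAs, 63.4% were higher without that library and 53.9% with DESeq2. miR-35-5p, which did not pass in the main test (1.99, adjusted p = 0.052, edgeR), gave 2.52 without that library (adjusted p = 0.024, edgeR). Its gain lay in day 14 replicate 3 alone, at 0.0010% of all counts. Day 14 replicates 1 and 2 held 8.9e-05% and 9.5e-05%, and the day 7 libraries 0.00012%, 8.9e-05% and 0.00011%. miR-40-5p was the arm that fell, from 43.7, 62.3 and 55.3 CPM to 5.82, 16.9 and 26.8 CPM (log2 -1.69 ± 0.47), and its call was lost without day 7 replicate 2 or day 14 replicate 1 (log2 -1.49 and -1.22).

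miR-34-5p, a regulator of stress responses that p53 induces in mammals, also continued upwards. It had a mean of 218 CPM at day 1, 1513, 1827 and 1438 CPM at day 7 and 5277, 2904 and 2745 CPM at day 14. The groups of miR-34-5p did not overlap, and its second step of 1.19 ± 0.28 (adjusted p = 0.0040, edgeR) was smaller than the first step of 2.87 (adjusted p for the difference = 0.024, edgeR). miR-72-5p, a relative of miR-31, went from 23422, 26504 and 24216 CPM to 70923, 38268 and 36704 CPM, a log2 rise of 0.98 ± 0.27 that was 0.66 without day 14 replicate 1. All 3 members of its family passed upwards, against 24.1% of all tested, with miR-73-3p at 1.00 ± 0.29 and miR-74-3p at 1.29 ± 0.39. With total-count scaling 2 of the 3 passed, as did 2 without day 14 replicate 1. The call of miR-74-3p was lost without any 1 day 7 library or day 14 replicate 1 (log2 1.02 to 1.42, adjusted p 0.051 to 0.092, edgeR).

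Some rare microRNAs continued with larger changes. miR-43-3p, of the miR-2 family, had 7.40, 8.44 and 9.76 CPM at day 7 and 56.2, 39.6 and 60.6 CPM at day 14, a rise of 2.61 ± 0.32 on the log2 scale after 2.17. miR-2214-3p went from 38.2, 27.1 and 35.4 CPM to 387, 116 and 97.4 CPM. Replicate 1 stood far above the other day 14 libraries of miR-2214-3p, and the log2 rise of 2.58 ± 0.61 was 1.73 without it.

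Of the heterochronic microRNAs, the timers of larval development, 2 of 8 let-7 members and both lin-4 members passed downwards after day 7, against 17.1% of all tested. The median log2 change was -0.05 over the let-7 list and -1.12 over the lin-4 list. let-7-5p, the founding member of its family and a repressor of *lin-41*, had a mean of 8358 CPM at day 1, 1672, 1542 and 1217 CPM at day 7 and 418, 672 and 649 CPM at day 14. Its second step was -1.35 ± 0.28 (adjusted p = 0.0024, edgeR) after -2.50, and the steps were not shown to differ (adjusted p = 0.12, edgeR). miR-237-5p, a relative of lin-4, went from 519, 386 and 412 CPM to 104, 192 and 158 CPM, a log2 change of -1.54 ± 0.30 after -3.09. In both microRNAs every library at the later age was below every library at the earlier one.

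lin-4-5p, which represses *lin-14* and *lin-28*, went from 1722, 2002 and 1667 CPM to 1169, 1217 and 946 CPM. The change of -0.69 ± 0.24 on the log2 scale passed (adjusted p = 0.031, edgeR), but leaving out any 1 of the 6 day 7 and day 14 libraries ended the call (log2 -0.77 to -0.57, adjusted p 0.062 to 0.13, edgeR). miR-241-5p, a let-7 relative that acts on *hbl-1*, fell by 1.10 on the log2 scale and lost its call without day 7 replicate 1 or 3 or day 14 replicate 1 or 3 (log2 -1.08 to -0.88, adjusted p 0.057 to 0.097, edgeR). These 2 were the only calls besides let-7-5p and miR-237-5p among the 10 members of the let-7 and lin-4 families. The other let-7 relatives included miR-48-5p, the most abundant, at 23211, 25610 and 19601 CPM and then 16368, 16717 and 17087 CPM, which did not overlap and did not pass (log2 -0.45 ± 0.22, adjusted p = 0.12, edgeR).

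miR-1020-3p, a mirtron within *T16G12.1*, fell furthest of those that continued downwards. It had 6.03, 6.61 and 5.14 CPM at day 7 and 0, 0.77 and 1.03 CPM at day 14, a log2 change of -3.20 ± 0.51 (adjusted p = 0.00041, edgeR). miR-47-3p fell from 4764, 4931 and 4263 CPM to 2624, 2962 and 2453 CPM, a change of -0.80 ± 0.19 after -0.64. Its seed relative miR-46-3p, at 2089, 2599 and 1850 CPM and then 3840, 2619 and 3297 CPM, had a second step of 0.58 ± 0.26 that did not pass (adjusted p = 0.089, edgeR) after a call of -0.89 in the first. That first call of miR-46-3p was lost without day 1 replicate 3, day 7 replicate 1 or day 7 replicate 3 (log2 -0.91 to -0.84, adjusted p 0.053 to 0.062, edgeR).

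For the microRNAs that passed only up to day 7, the median second step was 0.165 on the log2 scale after a rise (24 microRNAs) and -0.156 after a fall (27). miR-238-3p, whose loss shortens worm lifespan, rose from a day 1 mean of 12666 CPM to 24851, 23369 and 24631 CPM at day 7 and was at 23845, 20918 and 20748 CPM at day 14. The second step was -0.15 ± 0.19 (adjusted p = 0.55, edgeR) and differed from the first step of 0.94 (adjusted p = 0.034, edgeR). Its relatives passed after day 7. miR-239a-5p passed in both steps, with 68.9, 85.1 and 81.1 CPM and then 242, 110 and 182 CPM (log2 1.18 ± 0.39), and miR-239b-5p, at 3.97, 5.02 and 4.88 CPM and then 52.2, 11.4 and 18.2 CPM, passed only in the second (2.55 ± 0.58, or 1.75 without day 14 replicate 1). The second-step call of miR-239a-5p was lost without any 1 day 7 library or day 14 replicate 1 or 3 (log2 0.98 to 1.29, adjusted p 0.065 to 0.11, edgeR).

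miR-1832a, within *rsp-8* on chromosome III, rose only before day 7. From a day 1 mean of 2.13 CPM it reached 43.4, 29.3 and 62.4 CPM at day 7 and was at 58.2, 59.1 and 35 CPM at day 14, with steps of 4.53 and 0.17 that differed (adjusted p = 0.00092, edgeR). Day 7 and day 14 overlapped. miR-1832b-3p and miR-2215-3p had the same pattern of calls at lower counts. miR-1832b-3p had 3 counts over the day 1 libraries and 61 over the day 7 libraries, a ratio of 34.1 with an exact 95% counting interval of 11.1 to 170, and a second step of -0.66 that did not pass. miR-2215-3p had 0 and 13 counts, at least 7.27-fold higher against a floor of 3 counts over the day 1 group, and a second step of 0.71 that did not pass.

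On the falling side miR-237-3p, the partner arm of miR-237-5p, dropped from a day 1 mean of 24.5 CPM to 0.68, 0.34 and 0.92 CPM at day 7 and was at 0.38, 0.77 and 0.59 CPM at day 14. Its steps of -5.22 and -0.12 differed (adjusted p = 0.0025, edgeR), at a day 7 level near the least that these libraries can count. miR-357-3p went from 103 CPM at day 1 to 20.0, 23.0 and 18.7 CPM and then to 10.9, 14.3 and 15.9 CPM. The day 14 libraries of miR-357-3p were all below those of day 7, but its second step of -0.59 ± 0.23 just missed the threshold (adjusted p = 0.052, edgeR), while the steps differed (adjusted p = 0.015, edgeR). miR-799, on chromosome X between 8600643 and 8600735, had 5.07, 6.50 and 7.26 CPM and then 4.13, 6.93 and 4.12 CPM, which overlapped (log2 -0.31 ± 0.31). miR-235-3p, a relative of miR-92 chosen here after its values were seen, fell by 1.62 to day 7 on the log2 scale and then gave -0.10, with a difference of the steps that passed (adjusted p = 0.015, edgeR).

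Of the 5 microRNAs that turned, the abundant one was miR-228-5p, which is made in glia. From a day 1 mean of 20734 CPM it fell to 11814, 9719 and 13101 CPM at day 7 and then rose to 43116, 25401 and 27106 CPM at day 14. The steps were -0.84 (adjusted p = 0.040, edgeR) and 1.47 ± 0.31 (adjusted p = 0.0024, edgeR), and the rise was 1.25 without day 14 replicate 1. Their difference (adjusted p = 0.015, edgeR) was all but fixed by these opposite calls and adds nothing to them. The call of the first step was not followed through the fits that left out a library. Day 14 against day 1 did not pass for any of the 5. miR-1829a-5p turned in the same direction, with 25.6, 31.4 and 24.7 CPM and then 71.0, 43.1 and 48.5 CPM (log2 0.99 ± 0.27 after -1.28). Without day 14 replicate 1 the rise of miR-1829a-5p was 0.82. The direction was the same for miR-46-5p (0.78 after -0.75).

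miR-73-5p and miR-4936 turned downwards. miR-73-5p, the partner arm of miR-73-3p, went from 41.4, 46.4 and 46.2 CPM to 9.77, 18.0 and 24.6 CPM (log2 -1.35 ± 0.35 after 1.07), and its call ended without day 14 replicate 1 (log2 -0.99, adjusted p = 0.051, edgeR). miR-4936 fell by 0.86 on the log2 scale after a rise of 1.15, and 11 of the 12 fits that left out 1 library, all but that without day 21 replicate 1, lost the call (log2 -0.96 to -0.73, adjusted p 0.050 to 0.17, edgeR).

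Several of the most abundant microRNAs passed in neither step. miR-71-5p, which promotes long life in worms, was at 126950, 121233 and 121453 CPM at day 7 and at 85254, 96707 and 59802 CPM at day 14. All 3 later libraries were lower, but the log2 value of -0.61 ± 0.32 did not pass (adjusted p = 0.14, edgeR). With total-count scaling miR-71-5p was called lower (-0.85, adjusted p = 0.017, edgeR). Of the miR-58 family, relatives of fly bantam, none of 4 tested members passed, against 41.2% of all tested. miR-80-3p came nearest, with 83349, 81300 and 81516 CPM and then 47696, 50466 and 58284 CPM (-0.65 ± 0.26, adjusted p = 0.058, edgeR), and was called lower with RLE factors (adjusted p = 0.035, edgeR) and with DESeq2 (adjusted p = 0.022). miR-82-3p overlapped fully, at 65072, 54796 and 63269 CPM and then 69483, 71923 and 50848 CPM. The family nevertheless went from 21.7% ± 0.6 to 15.5% ± 1.2 (SD, n = 3) of all raw counts, a scale on which gains elsewhere lower every share. With total-count scaling 2 of its 4 members were called lower. The partner arms miR-58-5p (log2 -0.82), miR-81-5p (-2.59) and miR-82-5p (-1.16) were called lower in the main test, against 17.1% of all tested. miR-80-5p (-0.44) did not pass, and the call of miR-81-5p was lost without day 7 replicate 2 (log2 -2.04, adjusted p = 0.060, edgeR).

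Markers of tissues moved in different directions. The intestine was represented by miR-60-3p alone, which was lower in a call that leaving out any 1 of 3 libraries ended. The pair miR-240-3p and miR-786-3p, known for its part in the defecation rhythm but not on the marker list, was called higher (log2 0.72 and 0.79). The glial miR-228-5p was higher, and of the germline and embryo markers, the 8 guides of the miR-35 family, 7 were higher, as given above. The muscle microRNA miR-1-3p was at 10437, 11739 and 8367 CPM and then 8025, 8159 and 6185 CPM, which did not overlap and did not pass (log2 -0.45 ± 0.22, adjusted p = 0.10, edgeR). With DESeq2 or with total-count scaling miR-1-3p was called lower (-0.49 and -0.68). None of the 3 neuronal microRNAs passed, against 41.2% of all tested. Their log2 values were -0.65 for lsy-6, 0.50 for miR-124-3p and 0.16 for miR-234-3p, and that of miR-124-3p was -0.02 without day 14 replicate 1. The part of a changed tissue make-up in the other results was not tested.

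Of 10 microRNAs linked to worm lifespan, 4 rose after day 7 (miR-34-5p, miR-228-5p, miR-239a-5p and miR-239b-5p), 1 fell (lin-4-5p) and 5 did not pass, against 41.2% called of all tested. Their median was 0.61. Without day 14 replicate 1, 3 of the 10 rose and 0 fell, and with total-count scaling 3 rose and 2 fell. In the main test the members that did not pass were miR-71-5p, miR-238-3p and miR-83-3p, given above, with miR-229-5p (0.39 ± 0.30) and miR-246-3p (0.82 ± 0.36). Of the 4 tested mirtrons, miR-1018 and miR-2220-3p rose, against 24.1% of all tested, miR-1020-3p fell, against 17.1%, and miR-62 did not pass (0.58 ± 0.23, adjusted p = 0.057, edgeR).

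Among the smaller lists, in the miR-2 family miR-43-3p and miR-2-3p rose, against 24.1% of all tested, and miR-250-3p gave 0.05. The partner arm miR-250-5p was called lower (log2 -1.44, adjusted p = 0.0056, edgeR). The call of miR-2-3p (0.83 ± 0.26) ended without any 1 day 7 library or day 14 replicate 1 (log2 0.69 to 0.91, adjusted p 0.053 to 0.10, edgeR). Of miR-50-5p, miR-62 and miR-90-3p only miR-90-3p was called higher (0.50 ± 0.18), against 24.1% of all tested. miR-90-3p lost the call without any 1 day 7 library or day 14 replicate 1 or 3 (log2 0.47 to 0.54, adjusted p 0.071 to 0.12, edgeR). Its call was also lost with RLE factors, total-count scaling, a minimum of 10 counts per library, all microRNAs tested unfiltered or a replicate block (log2 0.29 to 0.50, adjusted p 0.056 to 0.28, edgeR). miR-785, related to miR-86-5p, was called lower (-0.61 ± 0.22), but not in 10 of the 12 fits with 1 library left out, all except those without day 21 replicate 1 or 2 (log2 -0.71 to -0.45, adjusted p 0.056 to 0.20, edgeR). Neither member of the pairs miR-75-3p with miR-79-3p, miR-251 with miR-252-5p and miR-232-3p with miR-357-3p passed, against 41.2% of all tested.

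**Figure D3:**
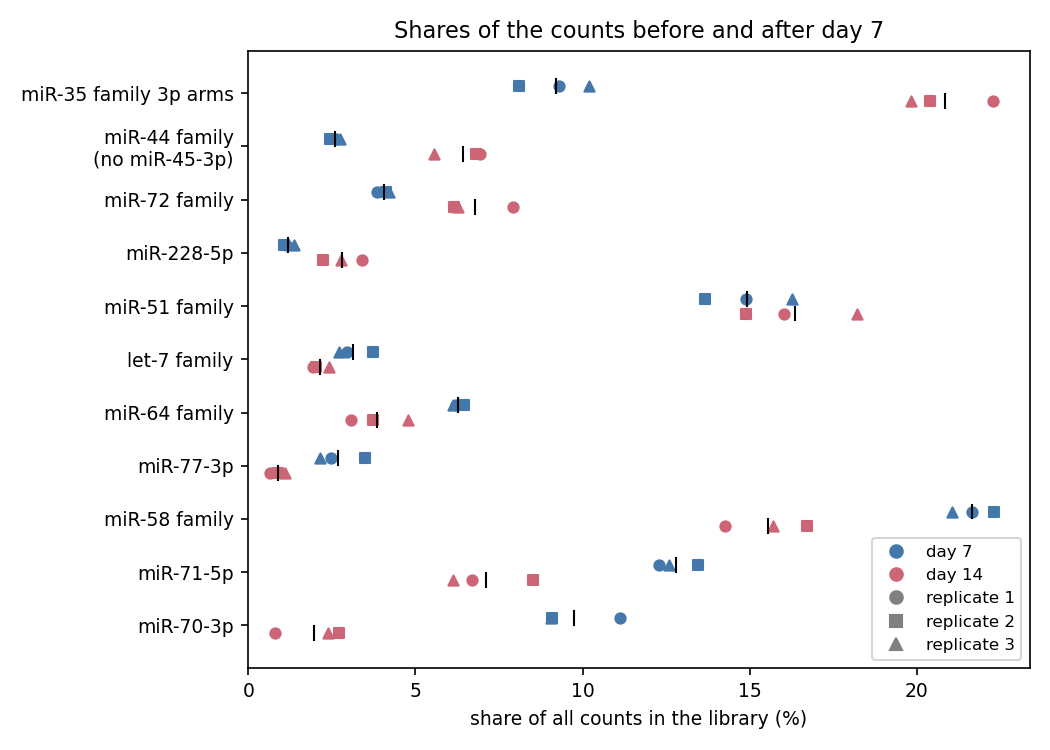
Points are the 3 day 7 (blue) and 3 day 14 (red) libraries, with the share of all counts in the library on the x axis in percent and a black tick at the mean. The miR-35 guides move from 9.20% to 20.8% and the miR-44 family, with miR-45-3p left out, from 2.60% to 6.43%, while miR-70-3p moves from 9.75% to 1.98% and the miR-51 family overlaps.

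The changes altered the make-up of the small RNA pool. Of the 59 microRNAs called higher, all except miR-45-3p, whose counts repeat those of miR-44-3p, held 23.0% ± 1.4 of the raw counts at day 7 and 46.5% ± 3.8 at day 14. The 42 called lower held 16.3% ± 1.3 and then 4.75% ± 1.62 (SD, n = 3). With miR-45-3p entered as well, the microRNAs called higher held 25.0% and 52.3%. Since the calls chose these sets, their shares describe the size of the change and test nothing. At day 1, which did not enter the comparison, the set called higher without miR-45-3p held 16.2% and the set called lower 19.1%, and at day 21 they held 48.0% and 4.76%.

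Runs of neighbouring hairpins, at most 10000 bases apart on 1 strand, were read together, each hairpin by its more abundant arm. Of all tested microRNAs, scarce partner arms included, 24.1% were called higher. Of 82 hairpins with both arms tested, 19 had the more abundant arm higher and the other not called. In another 7 both arms were higher, and in 4 the other arm was lower, so 24.1% is a low background for the runs. The first run lies on chromosome X between 1872466 and 1880038 on the plus strand, within the non-coding gene *Y59E1B.1*. It rose in all 6 of its tested hairpins. Their log2 rises were 2.85 for miR-4807, 2.75 for miR-4808-3p, 2.79 for miR-4809-3p, 2.35 for miR-2220-3p, 2.90 for miR-1018 and 2.13 for miR-4923b, the last chosen after its value was seen. All were rare. miR-4807 had 8.77, 7.18 and 8.18 CPM at day 7 and 80.2, 56.2 and 38.1 CPM at day 14, and miR-1018 had 1.37, 2.28 and 2.37 CPM and then 24.6, 12.9 and 8.09 CPM. Without day 14 replicate 1 the log2 rise of miR-1018 was 2.42. miR-4808-3p, with 2.33, 2.51 and 1.98 CPM and then 18.2, 16.5 and 11.5 CPM, was the one whose steps differed (adjusted p = 0.038, edgeR). Although miR-1018 and miR-2220-3p were listed as mirtrons, the annotation places no protein-coding gene over this run.

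On chromosome II the run of *mir-42*, *mir-43* and *mir-44*, between 11889811 and 11890118, was called higher in all 3 hairpins, which belong to different seed families. The counts of miR-44-3p cannot be assigned to *mir-44*, since miR-45-3p of another locus shares them. Its partner arm miR-44-5p passed upwards in both steps (1.80 and 1.16), while miR-45-5p passed in neither (-0.34 and -0.32). The run of *mir-35* to *mir-41*, between 11537608 and 11538404, rose in 6 of 7. The remaining hairpin, *mir-41*, was read by its more abundant arm miR-41-5p, which did not pass (log2 -1.38, adjusted p = 0.059, edgeR). Its guide miR-41-3p, at 0.64, did not pass either. On chromosome X both *mir-247* and *mir-797* rose, between 4756971 and 4757197, with miR-797-5p at 0.27, 0.23 and 0.79 CPM and then 13.7, 1.08 and 2.79 CPM. Its log2 rise of 3.71 ± 0.84 was 2.24 without day 14 replicate 1, the highest library. Both *mir-240* and *mir-786*, a pair known for its part in the defecation rhythm, rose as well, by 0.72 and 0.79 on the log2 scale, and lie between 7882622 and 7882840. The run of *mir-2208a* to *mir-2209c* on chromosome IV was called higher in 3 of 4. No more abundant arm was called in the runs of *mir-794* with *mir-795*, *mir-357* with *mir-358* and *mir-250* with *mir-61*. The same held for *mir-230* with *mir-791*, *mir-1829c* with *mir-4812* and *mir-2212* with *mir-1819*. Other runs were mixed. Of *mir-229*, *mir-64*, *mir-65* and *mir-66* only miR-65-5p passed, and in the run of *mir-73* to *mir-75* the first 2 hairpins rose while miR-75-5p was lower (-1.24 ± 0.31).

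**Figure D4:**
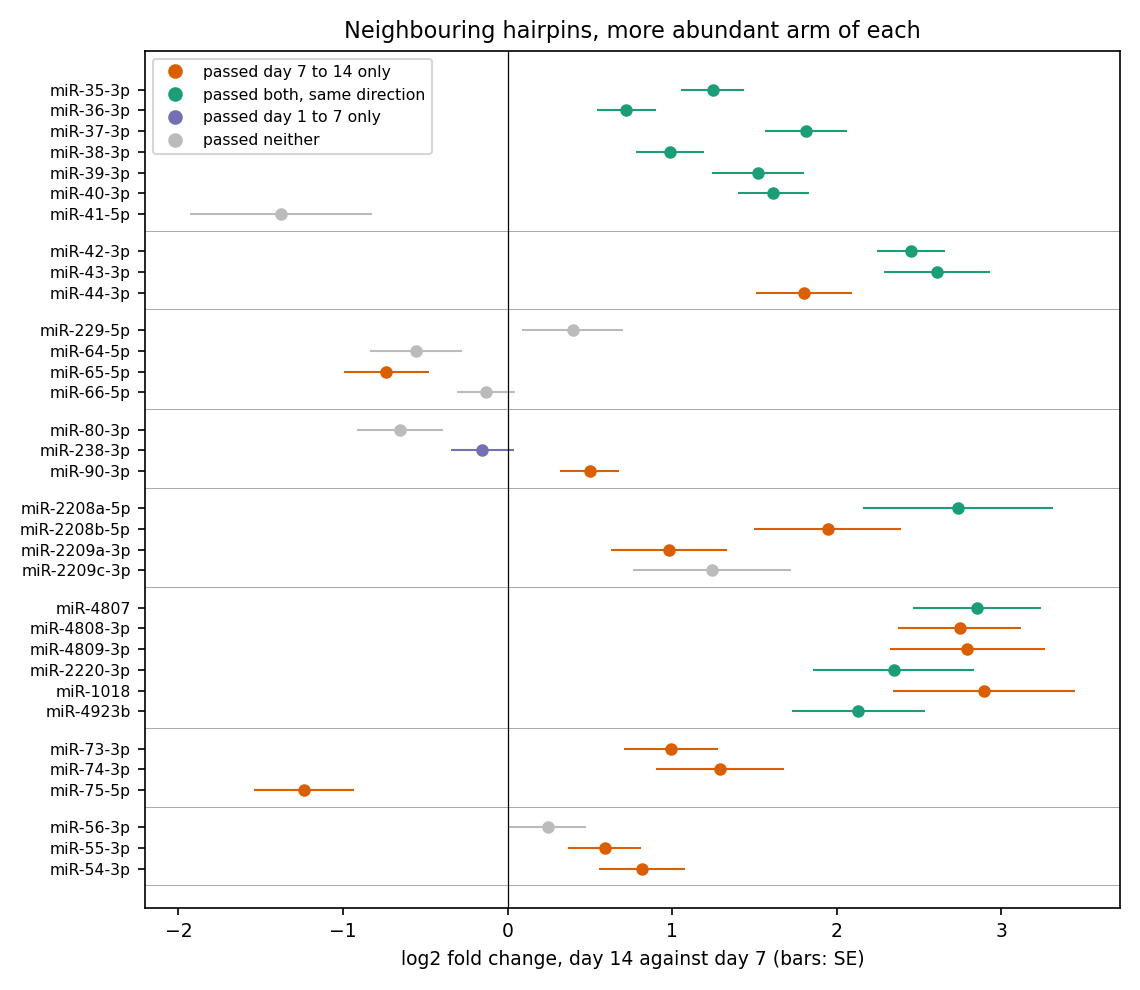
Points are the log2 fold change of day 14 against day 7 for the more abundant arm of each hairpin, with bars of 1 SE, grouped by runs of 3 or more tested hairpins within 10000 bases on 1 strand. All 6 hairpins of the run from miR-4807 to miR-4923b lie between 2.13 and 2.90, while the run with miR-229-5p straddles 0.

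Both arms were tested for 82 hairpins, with the more abundant arm set from the day 1 and day 21 libraries, which are not compared here. The median over hairpins of the log2 ratio of the less to the more abundant arm was -5.73, -5.69 and -5.77 at day 7 and -6.55, -6.14 and -5.91 at day 14. Each day 14 library was lower. The means of -5.73 ± 0.04 and -6.20 ± 0.33 (SD, n = 3) differed by -0.47, with p = 0.10 in an exact permutation test (two-sided), the smallest that 3 against 3 can give. The difference was -0.29 without day 14 replicate 1 and -0.17 without the miR-35 family. The less abundant arm had the lower fold change in 60 of 82 hairpins.

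The arms of 1 hairpin were called in opposite directions in 4 cases, none of which kept both calls without day 14 replicate 1. In *mir-73* and *mir-74* the 3p arms rose (1.00 and 1.29) and the 5p arms fell (-1.35 and -1.93), and the same held for *mir-40* (1.61 and -1.69) and for *mir-4813* (0.81 and -1.99), whose arms were chosen after their values were seen. Of these 4, 2 kept both calls without day 7 replicate 1, 1 without day 7 replicate 2, 2 without day 7 replicate 3 and 2 with total-count scaling. In 7 hairpins both arms rose and in 7 both fell, among them *mir-70* and *mir-60*. In 19 the more abundant arm rose while the other did not pass, as in *mir-87*, where miR-87-3p rose by 2.53 on the log2 scale.

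**Figure D5:**
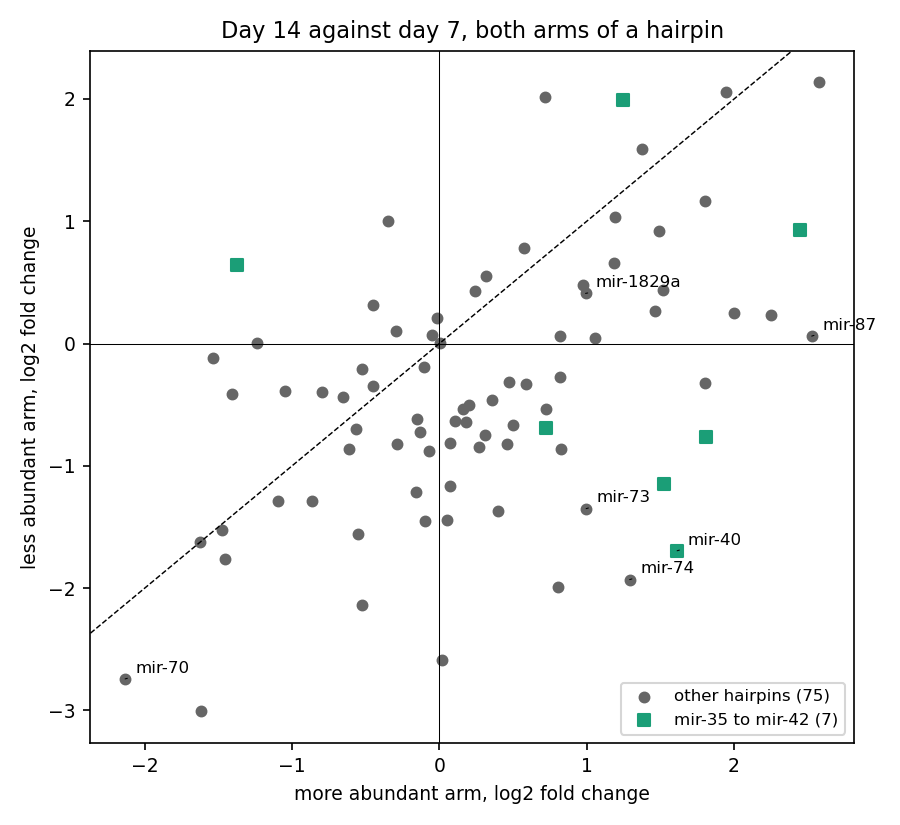
Each point is 1 of 82 hairpins, with the log2 fold change of day 14 against day 7 of its more abundant arm on the x axis and of its less abundant arm on the y axis. The dashed line marks equal change, and 60 of the 82 points lie below it.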

How the data were processed

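The authors sequenced small RNA from whole worms, aligned the reads with Tophat to WBcel215, mapped them to known microRNAs with miRDeep and deposited raw counts per microRNA and library. The CPM they deposited beside the counts equal the count over the library total within 0.005 and served only as a check. Their deposited pairwise comparisons hold DESeq means, fold changes and p-values and were not used. Tool versions are not given in the sources used here. Of 375 lines naming a microRNA, 1 line per mature name was kept, that with the largest total, which gave 368. In R 4.3.3, edgeR 4.0.16 kept 245 by filterByExpr (minimum count 10), scaled by TMM and fitted a quasi-likelihood model to all 12 libraries with a factor for age and no block (8 residual degrees of freedom). Calls had a Benjamini-Hochberg adjusted p below 0.05 among the 245. Counts carry no molecular identifiers, so counting intervals cover counting error only. Replicates are biological per the study's methods, and every pair differed by more than counting noise.

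The microRNAs named by rule were the 8 largest changes in each direction, 4 per class, the 5 most abundant at each age, the 4 largest gains and losses in level, up to 3 per list and the arms of *mir-83* and *mir-49*. Others, such as miR-36-3p, miR-38-3p, miR-55-3p, miR-46-5p and miR-240-3p, were added as members of a family, class, run or hairpin under description. Apart from hairpins with opposite arm calls, these additions were not followed one by one through the alternative settings. Members and lists were chosen with earlier results of these data known. The test was checked on simulated counts. Alternatives were RLE factors, total-count scaling, other count filters, DESeq2 1.42.0, a fit of day 7 and day 14 alone, a replicate block, summed lines and each library left out. Leaving out day 14 and day 21 replicates 1 together was added after the data were seen.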

Additional observations from a re-analysis of the deposited data

How the results depend on the processing

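Across 21 alternative settings no call of day 14 against day 7 changed its direction. The count of 101 calls ranged from 71 to 108 when 1 library was left out, with 43 to 63 higher and 26 to 45 lower. In the same fits 36 to 60 microRNAs started, 29 to 46 continued, 45 to 74 stopped and 1 to 6 turned, and the difference of the steps passed for 7 to 52. The lowest counts of falls (26) and of starts (36) both came without day 14 replicate 1. With at least 10 counts in every library 31 changes stopped in place of 51, among fewer microRNAs tested (182). The number that turned was 8 with DESeq2 and 3 with summed lines, and the cause was not tested. The arm ratio difference lay between -0.62 and -0.17. Replicate numbers did not pair the libraries (correlations of 0.031, -0.20 and -0.01 between day 7 and day 14), and a replicate block gave 96 calls, 95 of them among the 101. With day 14 replicate 1 and day 21 replicate 1 left out together, 88 microRNAs were called, 84 of them among the 101. Depth limits the rare microRNAs, where a library held only a few counts. With 3 libraries an age, the smallest called log2 change was 0.50 and the largest not called 1.99, that of miR-35-5p.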
